A study of Homo sapiens with 14 samples.

Results

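MOLM14 is a human acute myeloid leukaemia cell line whose FLT3 receptor carries an internal tandem duplication. MOLM14 cells that had reached early resistance to gilteritinib, which blocks the kinases FLT3 and AXL, in the presence of FLT3 ligand (FL) were compared with untreated parental MOLM14 cells. The comparison rests on 7 of the 14 RNA-seq libraries of the series, chosen by their names: 4 libraries from FL flasks numbered 9 to 12, and 3 parental libraries, here numbered 1 to 3. The FL flasks were grown with FL at 10 ng/mL and received gilteritinib at 100 nM for 48 hours. The parental cultures received neither ligand nor inhibitor, and all cultures were kept in RPMI-1640 medium with serum. Ligand, inhibitor and the outgrowth of resistant cells therefore differ together between the 2 groups and cannot be told apart. A second comparison set the FL flasks against 4 flasks, numbered 5 to 8, that had reached early resistance with FGF2, a fibroblast growth factor, at 10 ng/mL and had the same gilteritinib treatment. The labels do not say that the flasks of a line were derived independently, or that separate cultures gave the parental libraries, so the p-values may measure technical spread only.

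FLT3 is a receptor tyrosine kinase of early blood progenitors. FL, made by stromal and lymphoid cells, binds and pairs the receptor, while the tandem duplication makes it signal without ligand, above all through the transcription factor STAT5 and also through RAS and ERK and through PI3K and AKT. Gilteritinib occupies the ATP pocket of the kinase. FL and FGF2 are both known as marrow factors with which leukaemia cells can outlive FLT3 inhibitors. Myeloid cells make their granule proteins in stages: the serine proteases and myeloperoxidase of the primary (azurophil) granule appear at the promyelocyte stage under factors of the C/EBP family, PU.1 and MYB, and the proteins of the secondary granule appear later and need CEBPE.

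The 7 libraries held 27295941 to 32105895 estimated counts each. Transcripts encoded in mitochondrial DNA took 4.502% to 5.31% and ribosomal protein transcripts 10.3% to 11.98% of them. Of 14819 genes tested with edgeR's quasi-likelihood test, 1151 (7.77%) were higher and 1280 (8.64%) lower in the FL flasks at a Benjamini-Hochberg adjusted p under 0.05, and 360 and 269 of these changed at least 2-fold. These counts leaned on the 3 parental libraries: without parental library 1 they were 188 and 196, without parental library 2 they were 186 and 213, and without parental library 3 they were 789 and 750. Leaving out 1 flask gave 785 to 1326 higher and 900 to 1471 lower genes. Flasks 11 and 12 were the most alike of the FL flasks, with 678 genes more than 2-fold apart, against 1445 to 1667 for the other flask pairs and 599 to 704 for pairs of parental libraries. Expression is given in CPM, the counts scaled to library size by TMM, and changes as log2 fold changes ± standard error, FL flasks minus parental. Each standard error was derived from the test, as the absolute log2 fold change divided by the square root of the F statistic. The verbs rose and fell are used only of genes that passed the test. Counts of genes per list are to be read against the 7.77% higher and 8.64% lower over all genes tested.

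The promoters of 5 genes described below are shown. CISH and BCL6 are STAT5 targets that moved in opposite directions, and EGR1 is an early response gene of ERK signalling that fell. PRTN3 and AZU1 are neighbouring protease genes of the primary granule. All 5 promoters hold the motif marked in them, which most promoters of the same gene lists did not. The 5 therefore do not represent their lists. Each sequence is the 250 bases before the gene's start in RefSeq on GRCh38.p14, 5′ to 3′ on the gene's strand, with matches to 1 motif in capitals. Motifs were searched on both strands. Capitals mark TTCNNNGAA (the palindrome bound by STAT factors) in CISH and BCL6, the CArG box of the serum response element in EGR1, and TTGCNNAA on either strand (a C/EBP core) in PRTN3 and AZU1.

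CISH (chr3:50611775-50612024, minus strand): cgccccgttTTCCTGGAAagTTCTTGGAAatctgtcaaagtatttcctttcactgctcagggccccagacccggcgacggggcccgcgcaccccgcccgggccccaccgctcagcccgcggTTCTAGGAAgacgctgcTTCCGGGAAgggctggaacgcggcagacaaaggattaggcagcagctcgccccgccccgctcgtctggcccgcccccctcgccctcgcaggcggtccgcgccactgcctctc

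BCL6 (chr3:187745469-187745718, minus strand): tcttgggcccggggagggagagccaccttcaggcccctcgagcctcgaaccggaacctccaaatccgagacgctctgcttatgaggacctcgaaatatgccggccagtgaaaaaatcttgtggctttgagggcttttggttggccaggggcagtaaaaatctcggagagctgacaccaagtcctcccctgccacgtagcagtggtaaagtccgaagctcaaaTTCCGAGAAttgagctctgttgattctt

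EGR1 (chr5:138465229-138465478, plus strand): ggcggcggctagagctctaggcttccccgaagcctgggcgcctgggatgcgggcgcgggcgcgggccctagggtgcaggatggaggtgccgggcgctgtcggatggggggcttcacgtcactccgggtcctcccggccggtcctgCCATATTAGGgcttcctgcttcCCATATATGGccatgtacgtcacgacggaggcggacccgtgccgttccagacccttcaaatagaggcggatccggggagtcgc

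PRTN3 (chr19:840749-840998, plus strand): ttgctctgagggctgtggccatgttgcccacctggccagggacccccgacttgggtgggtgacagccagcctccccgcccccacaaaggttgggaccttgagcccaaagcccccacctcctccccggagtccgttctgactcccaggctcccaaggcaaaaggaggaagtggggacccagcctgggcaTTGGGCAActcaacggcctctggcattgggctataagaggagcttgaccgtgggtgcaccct

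AZU1 (chr19:827587-827836, plus strand): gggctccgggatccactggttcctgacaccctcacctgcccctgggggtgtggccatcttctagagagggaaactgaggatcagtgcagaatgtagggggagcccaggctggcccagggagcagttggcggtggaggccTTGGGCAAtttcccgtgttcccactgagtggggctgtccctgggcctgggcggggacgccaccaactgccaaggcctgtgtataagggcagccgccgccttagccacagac

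CISH held 4 matches to the STAT palindrome in this window, the nearest ending 104 bases before the start, and BCL6 held 1, ending 20 bases before it. The palindrome was found in 6.78% of 27305 RefSeq promoters of the same length, the CArG box in 1.14%, and the C/EBP core in 9.13%. Of 16 STAT5 targets listed, 10 had a RefSeq promoter here and 2 of these, CISH and BCL6, held the palindrome. Of 16 genes on the primary granule list, 8 had a promoter and 3 held the C/EBP core: PRTN3, AZU1 and RNASE2. Of 23 listed genes of RAS and ERK signalling, 14 had a promoter and 1, EGR1, held the CArG box. EGR1 held 2 matches to the CArG box and also the STAT palindrome, not capitalised here. In PRTN3 the match ended 55 bases and in AZU1 104 bases before the start. A match describes the letters of this window only, and binding was not measured.

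FLT3 (ENSG00000122025) stood at 393, 421, 325 and 330.5 CPM in flasks 9, 10, 11 and 12 and at 387, 379.9 and 365 CPM in the parental libraries, and did not pass the test (−0.04 ± 0.10, adjusted p = 0.823). Flasks 9 and 10 lay above and flasks 11 and 12 below every parental library. AXL, the second kinase bound by gilteritinib, divided the flasks in the same pairs: it stood at 19.5, 20.2, 8.89 and 8.65 CPM against 6.91, 7.28 and 8.31 CPM in the parental libraries. All 4 flasks lay above the parental range, but flasks 11 and 12 only just, and AXL did not pass the test (0.93 ± 0.34, adjusted p = 0.0957). Its ligand GAS6 stood at 69.4, 159, 59.8 and 64.9 CPM against 158, 166 and 209.7 CPM, so flask 10 lay within the parental range and the other flasks well below it (−1.02 ± 0.33, adjusted p = 0.0736).

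Of 20 receptor tyrosine kinase genes tested 2 rose (0 to 1 without flask 10, 11 or 12 or parental library 1, 2 or 3) and none fell (1 at an unadjusted p under 0.05, 1 by DESeq2, 0 by limma-voom, and 1 without flask 12), with a median log2 fold change of 0.08 against 0.003 over all genes tested. The count of rises lies near the share over all genes tested, 7.77%, and 8.64% of all genes fell. A gene was tested where at least 3 of the 7 libraries reached 0.34 CPM, so a gene can pass through the group where it is high, with fewer than 3 libraries at that level in the other, and its direction is then largely set by the filter. Leaving out 4 members that passed the filter through 1 group only, 1 rose of 16 and the median was 0.15. RET, the receptor of the GDNF family of growth factors, stood at 316 to 457 CPM in the flasks and 265 to 304 CPM in the parental libraries (0.45 ± 0.12, adjusted p = 0.0407). FGFR2, a fibroblast growth factor receptor, stood at 0.376, 3.27, 1.83 and 2.83 CPM in flasks 9, 10, 11 and 12 and at 0.161, 0.222 and 0.288 CPM in the parental libraries (3.20 ± 0.73, adjusted p = 0.0235), so flask 9 lay little above the parental libraries. FGFR2 passed the filter through the FL flasks only, so its direction was largely set by the filter. FGFR1 stood at 189.8 to 235 CPM against 176 to 192 CPM (adjusted p = 0.171). Of 5 ligand genes of FLT3, KIT, the TAM kinases and CSF1R, KITLG rose and CSF1 fell. KITLG, which encodes stem cell factor, stood at 11.2, 11.7, 5.67 and 4.62 CPM against 2.54, 2.03 and 2.66 CPM (1.78 ± 0.37, adjusted p = 0.0174), with flasks 9 and 10 again the higher pair. CSF1, the macrophage growth factor, stood at 0.137 to 0.820 CPM against 1.61 to 1.98 CPM (−1.83 ± 0.49, adjusted p = 0.0407). FLT3LG, the cells' own FL gene, stood at 7.29, 3.83, 3.59 and 3.59 CPM against 3.60, 3.62 and 3.995 CPM, so flask 9 alone was high (adjusted p = 0.513).

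Of 25 cytokine receptor genes 2 rose (0 to 1 without flask 11 or parental library 1, 2 or 3 and 4 without flask 9) and 2 fell (1 without flask 11 or parental library 1, 2 or 3), against 7.77% and 8.64% of all genes tested, shares near which these counts lie. The median was 0.10 (−0.052 without flasks 11 and 12). CSF3R, the receptor of the granulocyte growth factor G-CSF, stood at 116, 238, 165 and 140.2 CPM in the flasks and 90.1, 88.5 and 86.4 CPM in the parental libraries (0.90 ± 0.22, adjusted p = 0.0317), and flask 10 was the highest. IL18R1, a chain of the interleukin-18 receptor, rose from between 0.579 and 1.22 CPM to between 2.46 and 5.19 CPM (1.99 ± 0.38, adjusted p = 0.0147). IL7R fell from between 7.65 and 8.17 CPM to between 1.33 and 2.01 CPM (−2.23 ± 0.19, adjusted p = 0.000904). IL21R fell from between 7.31 and 8.71 CPM to between 2.38 and 5.95 CPM (−1.05 ± 0.28, adjusted p = 0.0394). IL3RA, the interleukin-3 receptor alpha chain, stood at 27.5, 77.6, 60.1 and 58.2 CPM against 53.6, 52.4 and 58.4 CPM: flask 9 was low, flask 10 high and flasks 11 and 12 near the top of the parental range (adjusted p = 0.956). CSF2RB stood at 9.07 to 18.9 CPM against 9.07 to 11.4 CPM (adjusted p = 0.165). CSF1R stood at 6.91, 22.2, 21.2 and 15.0 CPM against 13.1, 13.96 and 13.3 CPM (adjusted p = 0.616). KIT stood at 1.505, 3.98, 0.221 and 0.0665 CPM against 2.22, 2.58 and 2.66 CPM (adjusted p = 0.613). For CSF1R and KIT flasks lay on both sides of the parental range. IL7R passed the test with each of the 7 libraries left out in turn. RET lost the call without flask 10, 11 or 12 or parental library 1, 2 or 3. FGFR2 no longer passed without flask 12 or parental library 1, 2 or 3. KITLG and IL18R1 missed the threshold without parental library 1 or 2. CSF1 lost the call without flask 10 or 12 or parental library 1, 2 or 3. CSF3R no longer passed without flask 11 or parental library 1, 2 or 3. IL21R missed the threshold without flask 9 or 11 or parental library 1, 2 or 3 (adjusted p = 0.05 to 0.16 for these losses).

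More targets of STAT5 fell than rose in the FL flasks. Of 15 genes of this list tested 8 fell (4 to 5 without parental library 1 or 2) and 1 rose (0 without parental library 1, 2 or 3 and 2 without flask 9 or 10), against 8.64% and 7.77% of all genes tested, and the median log2 fold change was −0.69 against 0.003 over all genes. With 2 members left out that passed the filter through the parental libraries only, 1 rose and 7 fell of 13 (median −0.50). Among the feedback inhibitors of cytokine signalling, CISH (ENSG00000114737) stood at 10.9, 13.5, 10.6 and 11.7 CPM in flasks 9, 10, 11 and 12 and at 44.6, 41.7 and 48.1 CPM in the parental libraries (−1.94 ± 0.11, adjusted p = 0.000238). The 4 flasks lay close together and far below the parental libraries. SOCS1 fell from 3.50, 3.66 and 6.41 CPM to 0.889, 0.855, 0.725 and 0.865 CPM (−2.43 ± 0.27, adjusted p = 0.00235). SOCS3 fell from 13.8, 11.9 and 15.4 CPM to 1.16, 1.86, 3.85 and 3.99 CPM (−2.33 ± 0.39, adjusted p = 0.0097). SOCS2 stood at 225, 187, 141 and 141 CPM against 276, 290.1 and 275 CPM (−0.69 ± 0.16, adjusted p = 0.0257). Flasks 11 and 12 were the lowest for SOCS2 and the highest for SOCS3, and neither gene overlapped with the parental range.

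The survival kinase gene PIM1 (ENSG00000137193) stood at 2.57, 8.48, 6.49 and 5.49 CPM in the flasks and 49.6, 49.8 and 47.5 CPM in the parental libraries (−3.09 ± 0.32, adjusted p = 0.0018). Every flask lay far below the parental range, and flask 9 was the lowest. Its relatives PIM2, at 10.1 to 11.5 CPM against 11.1 to 11.4 CPM, and PIM3, at 34.5 to 39.4 CPM against 31.6 to 42.1 CPM, did not pass (adjusted p = 0.598 and 0.634). OSM, the gene of the cytokine oncostatin M, fell from between 11.4 and 15.8 CPM to between 3.15 and 5.69 CPM (−1.49 ± 0.22, adjusted p = 0.00655). IKZF2, which encodes the zinc-finger factor Helios, fell from between 1.08 and 1.74 CPM to between 0.0372 and 0.410 CPM (−3.12 ± 0.61, adjusted p = 0.015). IKZF2 passed the filter through the parental libraries only, so its direction was largely set by the filter. The anti-apoptotic gene MCL1 fell from between 303 and 318 CPM to between 193 and 269 CPM (−0.45 ± 0.12, adjusted p = 0.034). BCL6, a transcriptional repressor that STAT5 is known to repress, moved the other way: it stood at 4.07, 9.44, 10.5 and 10.6 CPM against 3.02, 2.84 and 3.27 CPM (1.51 ± 0.33, adjusted p = 0.0207), with flask 9 the lowest of the flasks and still above the parental range. CCND2, the cyclin D2 gene, stood at 76.6, 44.2, 61.2 and 72.0 CPM against 92.3, 89.6 and 87.4 CPM (adjusted p = 0.0759), below the parental range in every flask. BCL2L1 stood at 15.3 to 17.4 CPM against 16.8 to 19.7 CPM (adjusted p = 0.291). In RNA from whole cultures, fewer cells that express a gene and less RNA of it per cell cannot be told apart, here and in all results that follow. CISH, SOCS1, PIM1 and OSM passed the test with each of the 7 libraries left out in turn. SOCS3 lost the call without parental library 1. SOCS2 no longer passed without flask 12 or parental library 1, 2 or 3. IKZF2 missed the threshold without parental library 1 or 2. MCL1 lost the call without flask 9 or parental library 1, 2 or 3. BCL6 no longer passed without parental library 1, 2 or 3 (adjusted p = 0.0501 to 0.131 for these losses).

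**Figure D1:**
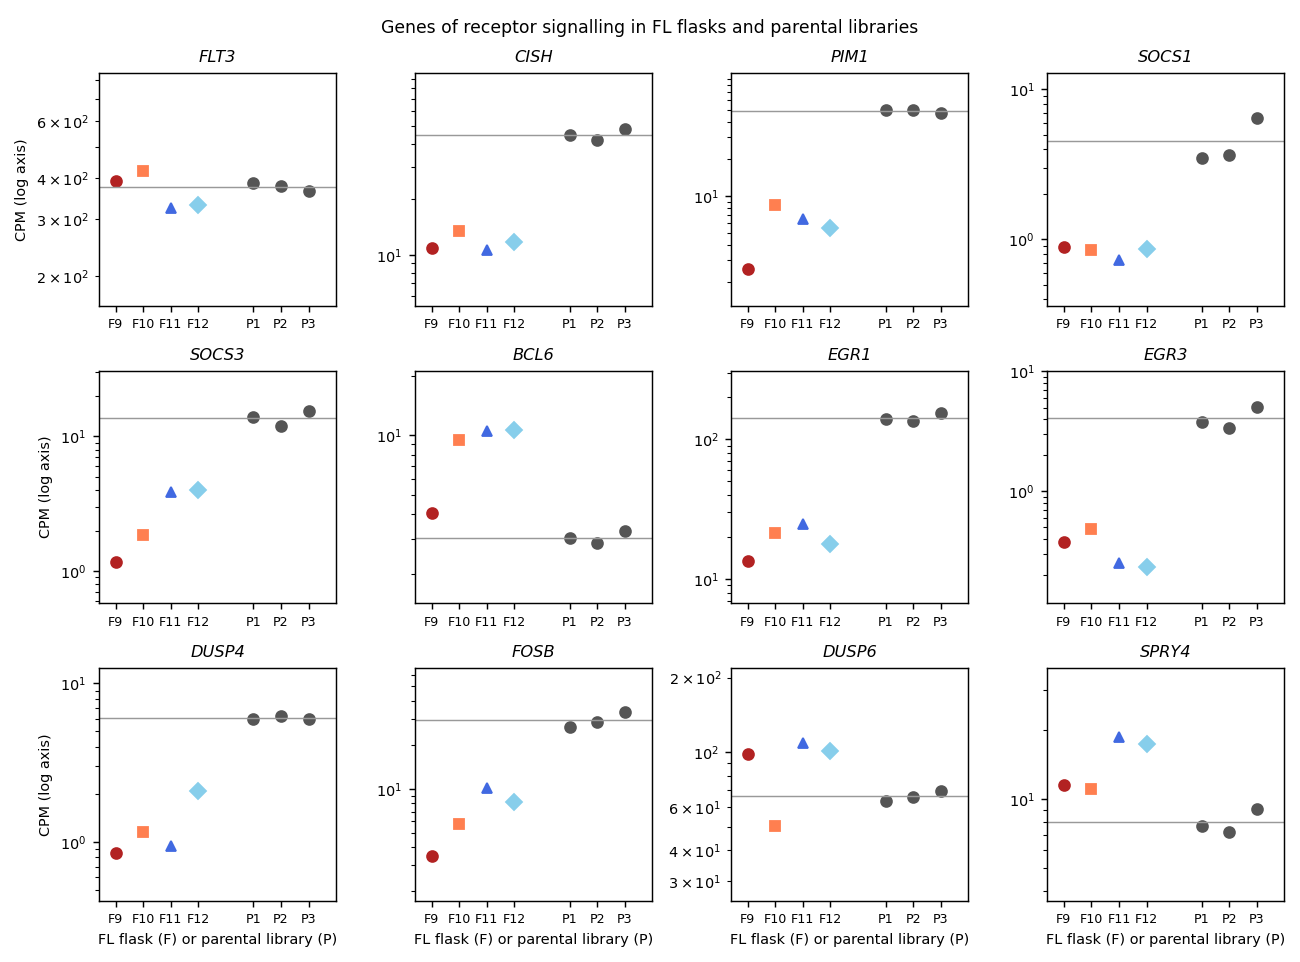
Expression of 12 genes of receptor signalling in each library, in CPM on a log axis. Each panel is a gene, each point a library (FL flasks 9 to 12 and parental libraries 1 to 3), and the horizontal line is the mean of the 3 parental libraries. CISH, PIM1, SOCS1, SOCS3, EGR1, EGR3, DUSP4 and FOSB lie below the parental libraries in every flask, BCL6 and SPRY4 above them, and DUSP6 and FLT3 on both sides.

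Transcripts induced by RAS and ERK signalling were lower for some members and not for others. Of 22 genes of this list tested 7 fell (4 without parental library 1 or 2) and 1 rose (0 without flask 11 or 12 or parental library 1, 2 or 3 and 2 to 3 without flask 9 or 10), and the median was −0.21. The filter was passed by 1 member through the parental libraries only, and without it 1 rose and 6 fell of 21 (median −0.17). The genes that fell were EGR1, EGR2, EGR3, the AP-1 members FOSB and FOSL1, and the phosphatase genes DUSP4 and DUSP5. Other AP-1 members did not pass: FOS is given below, JUN had means of 7.95 CPM in the flasks and 8.96 CPM in the parental libraries, and JUNB 84.6 and 68.5 CPM. EGR1 (ENSG00000120738), a zinc-finger factor induced within minutes of growth factor stimulation, stood at 13.4, 21.3, 24.7 and 17.9 CPM in flasks 9, 10, 11 and 12 and at 139, 135 and 155 CPM in the parental libraries (−2.89 ± 0.18, adjusted p = 0.000388), with no flask near the parental range. EGR3 fell from between 3.40 and 5.07 CPM to between 0.233 and 0.483 CPM (−3.60 ± 0.32, adjusted p = 0.000936). EGR3 is the member that passed the filter through the parental libraries only, so its direction was largely set by the filter. EGR2 fell from between 1.62 and 2.09 CPM to between 0.103 and 0.698 CPM (−2.10 ± 0.49, adjusted p = 0.0252). FOSB stood at 3.46, 5.72, 10.2 and 8.11 CPM against 26.5, 28.8 and 33.3 CPM (−2.10 ± 0.31, adjusted p = 0.00675). FOSL1 stood at 12.1 to 14.3 CPM against 16.8 to 17.9 CPM (−0.39 ± 0.10, adjusted p = 0.0346). DUSP4 and DUSP5, phosphatases that switch ERK off, fell by 2.25 ± 0.31 and 1.08 ± 0.22 on the log2 scale (adjusted p = 0.00504 and 0.0162).

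Of the other members of the list SPRY4 rose and the rest did not pass. SPRY4, an inhibitor of receptor tyrosine kinase signalling, rose from 7.62, 7.24 and 9.11 CPM to 11.6, 11.1, 18.7 and 17.4 CPM (0.88 ± 0.22, adjusted p = 0.0319), flasks 11 and 12 being the higher pair. DUSP6, another ERK phosphatase gene, stood at 98.2, 50.2, 109 and 101 CPM against 63.2, 65.8 and 69.8 CPM: flasks 9, 11 and 12 lay above and flask 10 below the parental range (adjusted p = 0.239). FOS stood at 59.7, 127, 99.4 and 98.6 CPM against 74.5, 77.0 and 77.9 CPM (adjusted p = 0.318), low in flask 9 and high in the other 3. MYC stood at 562, 550.1, 533 and 587 CPM against 588, 579 and 665 CPM (adjusted p = 0.225). CCND1, the cyclin D1 gene, stood at 19.7, 10.0, 34.7 and 34.5 CPM against 19.4, 14.9 and 21.1 CPM (adjusted p = 0.493), lowest in flask 10. In flask 10, 16 of the 22 genes lay below every parental library, against 14 in flask 9, 12 in flask 11 and 10 in flask 12. Over all genes tested the shares below every parental library were 39.8%, 40.0%, 37.9% and 38.3%. EGR1, FOSB and DUSP4 passed the test with each of the 7 libraries left out in turn. EGR2 lost the call without parental library 1, 2 or 3. FOSL1 no longer passed without flask 12 or parental library 1, 2 or 3. DUSP5 missed the threshold without parental library 1 or 2. SPRY4 lost the call without flask 11 or 12 or parental library 1, 2 or 3 (adjusted p = 0.0558 to 0.143 for these losses).

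FOXO factors are kept out of the nucleus by AKT. Of 21 genes induced by them 5 rose (2 to 3 without flask 12 or parental library 1, 2 or 3). In the same list 2 fell (1 without parental library 1 or 2), and the median was 0.12. Among all genes tested 7.77% rose and 8.64% fell, and the count of falls lies near that share. IRS2, an adaptor of the insulin and IGF1 receptors, stood at 73.7, 97.7, 102 and 96.5 CPM against 27.5, 28.7 and 35.2 CPM (1.60 ± 0.14, adjusted p = 0.000904). CITED2, a transcriptional co-regulator, stood at 338, 357, 386 and 369.6 CPM against 186, 195 and 217 CPM (0.86 ± 0.08, adjusted p = 0.000936). For both, all 4 flasks lay together above the parental libraries. KLF6, a Krüppel-like factor, moved the other way, from 85.4, 83.4 and 81.9 CPM to 31.9, 27.8, 37.2 and 37.5 CPM (−1.31 ± 0.11, adjusted p = 0.000807). TRIB1, a pseudokinase that promotes breakdown of C/EBPα, fell from between 40.3 and 46.9 CPM to between 25.5 and 34.1 CPM (−0.56 ± 0.11, adjusted p = 0.0156). GADD45A, a growth arrest gene, rose from between 4.37 and 5.72 CPM to between 6.95 and 15.1 CPM (1.12 ± 0.26, adjusted p = 0.0242). BCL2L11, which encodes the BH3-only protein BIM, stood at 51.9 to 61.5 CPM against 50.9 to 54.3 CPM (adjusted p = 0.318). Of 10 genes of IGF signalling and IGF binding 2 rose (4 without flask 10) and 1 fell (0 without parental library 1), beside the same shares of all genes tested. Beside IRS2, IGFBP7 rose from between 43.6 and 48.4 CPM to between 62.8 and 76.6 CPM (0.59 ± 0.09, adjusted p = 0.00636). IGFBP2 fell from between 91.6 and 111 CPM to between 25.9 and 53.4 CPM (−1.28 ± 0.22, adjusted p = 0.011). IRS2, CITED2, KLF6 and IGFBP7 passed the test with each of the 7 libraries left out in turn. TRIB1 lost the call without parental library 1 or 2. GADD45A no longer passed without flask 12 or parental library 1, 2 or 3. IGFBP2 missed the threshold without parental library 1 (adjusted p = 0.0504 to 0.11 for these losses).

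Genes of the primary granule rose together in all 4 FL flasks. Of 14 tested 13 rose (7 to 8 without parental library 1, 2 or 3) and none fell (0 at an unadjusted p under 0.05, 0 by DESeq2, 0 by limma-voom), with a median log2 fold change of 2.15 against 0.003 over all genes. The filter was passed by 1 member through the FL flasks only, and without it 12 rose of 13 (median 2.10). That gene was DEFA4, a defensin gene. The member that did not pass was CTSC, the activating protease cathepsin C (150.2 to 204 CPM against 203 to 218 CPM, adjusted p = 0.222). Summed over the list, these transcripts made up 10931, 10604, 10208 and 9162 CPM in flasks 9, 10, 11 and 12 and 3169, 3305 and 3573 CPM in the parental libraries. PRTN3 (ENSG00000196415), the proteinase 3 gene, stood at 1672, 1831, 1237 and 944 CPM in the flasks and 133, 142 and 209 CPM in the parental libraries (3.14 ± 0.28, adjusted p = 0.000986). ELANE, the neutrophil elastase gene, stood at 1444, 2066, 1047 and 909 CPM against 186, 194 and 313 CPM (2.56 ± 0.33, adjusted p = 0.00402). AZU1, which encodes the antimicrobial azurocidin, stood at 2540, 2136, 1743 and 1961 CPM against 375, 387 and 595 CPM (2.21 ± 0.20, adjusted p = 0.0011). Parental library 3 was the highest parental library for all 3 genes, and every flask lay above it. For PRTN3 and ELANE flask 10 was the highest flask and flask 12 the lowest.

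CTSG, the cathepsin G gene, rose from 92.7, 100.5 and 100.4 CPM to 581, 315, 359 and 419.8 CPM (2.10 ± 0.20, adjusted p = 0.00147). PRSS57, another serine protease gene of these granules, rose from 81.8, 91.5 and 159 CPM to 326, 470.0, 328 and 387 CPM (1.77 ± 0.25, adjusted p = 0.00556). MPO, the myeloperoxidase gene, stood at 702, 172, 513 and 580.1 CPM against 64.3, 60.6 and 79.2 CPM (2.85 ± 0.44, adjusted p = 0.00769), with flask 10 well below the other flasks and above the parental libraries. CFD, the complement factor D gene, stood at 556, 789, 125 and 118 CPM against 38.1, 41.4 and 62.4 CPM (3.07 ± 0.74, adjusted p = 0.0296): flasks 9 and 10 were far above flasks 11 and 12. LYZ, the lysozyme gene, had the opposite order, at 399, 321, 811 and 908 CPM against 260.2, 265 and 243 CPM (1.25 ± 0.36, adjusted p = 0.0488). BPI, which encodes a bactericidal protein, stood at 37.1, 17.6, 84.3 and 34.8 CPM against 9.52, 9.60 and 8.93 CPM (2.22 ± 0.48, adjusted p = 0.0212), highest in flask 11. RNASE2 rose from between 273 and 291 CPM to between 388 and 498 CPM (0.61 ± 0.10, adjusted p = 0.00771). Its product is also known as the eosinophil-derived neurotoxin, so its place on the primary granule list is a choice. The counts and sums of this list include RNASE2. SRGN, the granule proteoglycan serglycin, rose from between 1261 and 1438 CPM to between 1835 and 3136 CPM (0.76 ± 0.18, adjusted p = 0.0276). SERPINB1, an inhibitor of these proteases, rose from between 65.7 and 68.8 CPM to between 73.9 and 129 CPM (0.62 ± 0.16, adjusted p = 0.0386). DEFA4 stood at 0.924, 0.781, 3.62 and 1.93 CPM against 0, 0 and 0.0360 CPM; no fold is given because the parental libraries held at most 1 count. PRTN3, ELANE, AZU1, CTSG, PRSS57 and RNASE2 passed the test with each of the 7 libraries left out in turn. MPO lost the call without parental library 1 or 2. CFD and BPI no longer passed without parental library 1, 2 or 3. LYZ missed the threshold without flask 11 or 12 or parental library 1, 2 or 3. SRGN lost the call without flask 12 or parental library 1, 2 or 3. SERPINB1 no longer passed without flask 10, 11 or 12 or parental library 1, 2 or 3 (adjusted p = 0.0523 to 0.153 for these losses).

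Genes of the later granules were mostly too low to test: 6 of 16 passed the filter on low counts, a filter a gene can pass through the group where it is high, and 2 of them rose (0 to 1 without flask 11 or 12 or parental library 1, 2 or 3 and 4 without flask 10). CHI3L1, a chitinase-like protein of these granules, stood at 215, 422, 365 and 350.1 CPM against 176, 175 and 186 CPM (0.92 ± 0.20, adjusted p = 0.0218). S100A9, a calcium-binding protein of mature myeloid cells, stood at 17.9, 2.01, 56.2 and 18.7 CPM against 1.99, 2.14 and 2.70 CPM (3.38 ± 0.93, adjusted p = 0.0447), so flask 10 lay within the parental range and flask 11 far above it. Its partner S100A8 had the same order, at 7.08, 1.67, 23.1 and 6.45 CPM against 2.73, 2.77 and 1.76 CPM (adjusted p = 0.109). Lactoferrin (LTF), CAMP, LCN2 and MMP8, which define the secondary granule, were not tested. CHI3L1 lost the call without parental library 1, 2 or 3. S100A9 no longer passed without flask 11 or 12 or parental library 1, 2 or 3 (adjusted p = 0.0581 to 0.16 for these losses).

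**Figure D2:**
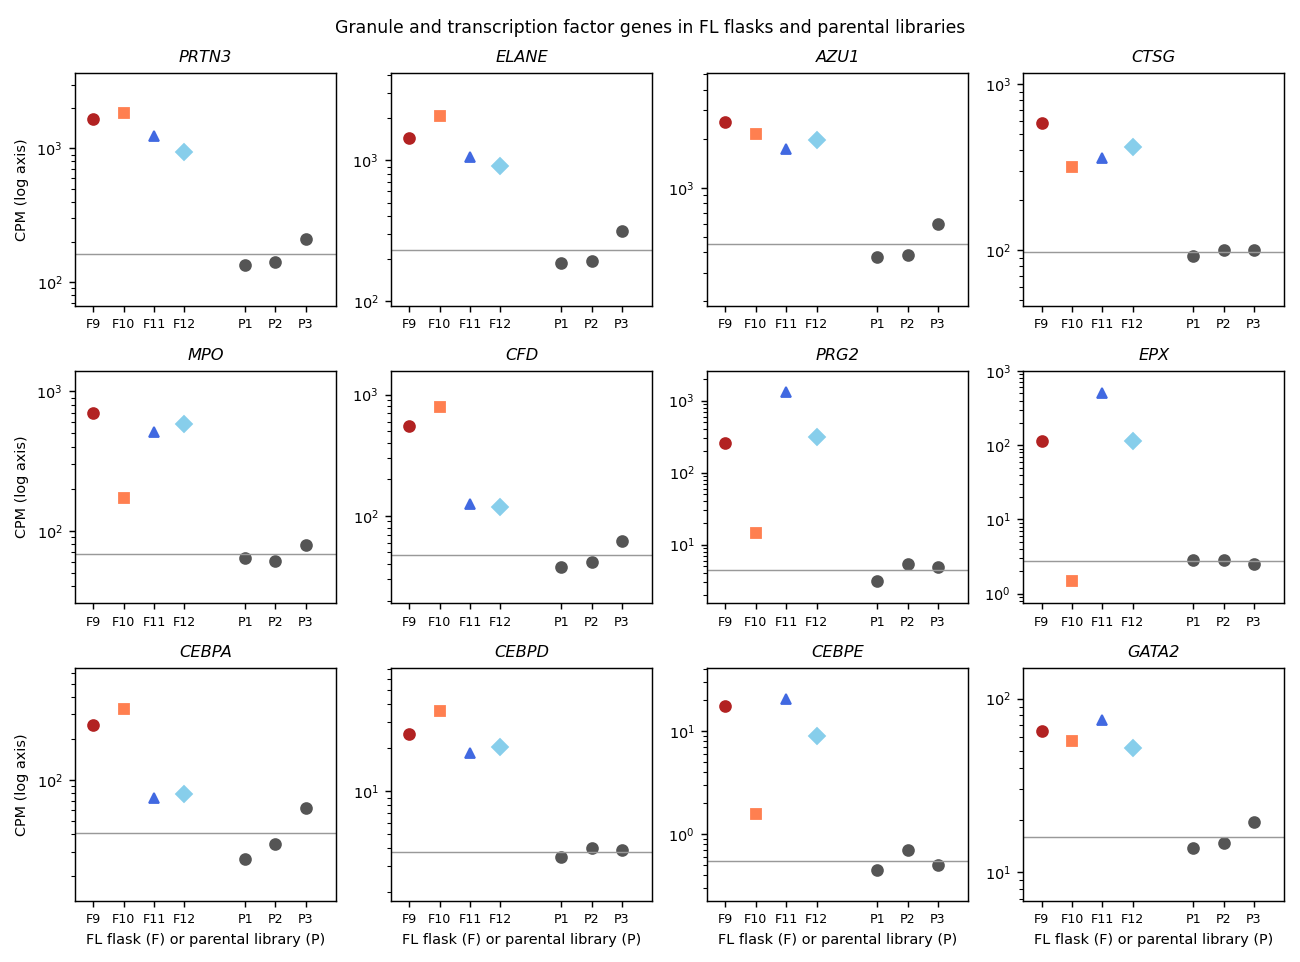
Expression of 12 granule and transcription factor genes in each library, in CPM on a log axis. Each panel is a gene, each point a library (FL flasks 9 to 12 and parental libraries 1 to 3), and the horizontal line is the mean of the 3 parental libraries. PRTN3, ELANE, AZU1, CTSG and MPO lie above the parental libraries in all 4 flasks. EPX and PRG2 are lowest in flask 10 and highest in flask 11 among the flasks, and CFD and CEBPA are higher in flasks 9 and 10 than in flasks 11 and 12.

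Among named genes with a mean log2 CPM of at least 3, the eosinophil granule genes EPX and PRG2 had the widest ranges over the flasks. PRG2 (ENSG00000186652), the gene of major basic protein, stood at 262, 14.5, 1300 and 314 CPM in flasks 9, 10, 11 and 12 and at 3.09, 5.43 and 4.97 CPM in the parental libraries (6.72 ± 1.44, adjusted p = 0.0203). EPX, the eosinophil peroxidase gene, stood at 114, 1.49, 505 and 113 CPM against 2.86, 2.81 and 2.48 CPM (6.08 ± 1.57, adjusted p = 0.0368). Flask 11 was the highest for both, and flasks 9 and 12 were alike. Flask 10 lay nearest to the parental range for PRG2 and below it for EPX. The flask means, 472.5 CPM for PRG2 and 183.5 CPM for EPX, lay above flasks 9, 10 and 12 and far below flask 11. A mean over the flasks therefore describes none of them well. PRG3, the neighbouring homologue of PRG2, was at 0 in all 3 parental libraries and at 2.33, 0.0372, 20.3 and 3.49 CPM in flasks 9, 10, 11 and 12, in the same order (adjusted p = 0.0664). RNASE3, the eosinophil cationic protein gene, stood at 40.9 to 60.2 CPM against 35.0 to 37.5 CPM (adjusted p = 0.0529); it is a close homologue of RNASE2, and reads could be shared between them. Summed over the 6 listed genes, these transcripts took 424.2, 57.0, 1886 and 480.0 CPM in the flasks and 45.9 CPM or less in the parental libraries. CLC and IL5RA, the other 2 listed genes, were too low to test. PRG2 lost the call without parental library 1, 2 or 3. EPX no longer passed without flask 9, 11 or 12 or parental library 1, 2 or 3 (adjusted p = 0.0526 to 0.14 for these losses).

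Of 23 myeloid transcription factor genes 9 rose (3 without parental library 1, 2 or 3) and 3 fell (1 without parental library 1 or 2), with a median of 0.04. All 4 C/EBP genes on the list rose. CEBPG, a C/EBP gene counted on another list, had a lower mean in the flasks, 109.1 CPM against 135.3 CPM in the parental libraries. CEBPD stood at 24.9, 35.7, 18.5 and 20.1 CPM in flasks 9, 10, 11 and 12 and at 3.47, 4.03 and 3.89 CPM in the parental libraries (2.71 ± 0.25, adjusted p = 0.00109), with no overlap. CEBPE, which drives the late granule stage, stood at 17.6, 1.56, 20.6 and 8.98 CPM against 0.450, 0.702 and 0.504 CPM (4.46 ± 0.86, adjusted p = 0.0153); flask 10 was the lowest of the flasks, as for the eosinophil genes. CEBPA, the factor of the granulocyte-monocyte progenitor, stood at 252, 326, 73.2 and 78.8 CPM against 26.3, 34.0 and 62.1 CPM (2.16 ± 0.61, adjusted p = 0.0477), and flasks 9 and 10 were the higher pair, as for CFD. CEBPB rose from between 3.54 and 4.53 CPM to between 5.75 and 10.3 CPM (0.90 ± 0.24, adjusted p = 0.04). GATA2, a factor of stem and progenitor cells and of mast cells and basophils, rose from 13.7, 14.7 and 19.5 CPM to 65.1, 56.7, 74.8 and 52.1 CPM (1.96 ± 0.17, adjusted p = 0.000904), with the flasks close together. SPI1, which encodes PU.1, rose from 78.6, 78.8 and 102 CPM to 145, 179, 156 and 161 CPM (0.89 ± 0.12, adjusted p = 0.00398).

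MYB, the factor of proliferating progenitors, rose from between 401 and 417 CPM to between 472 and 569.8 CPM (0.33 ± 0.07, adjusted p = 0.0203). GFI1, a repressor needed for neutrophil formation, rose from between 106 and 125 CPM to between 133 and 179 CPM (0.46 ± 0.12, adjusted p = 0.0363). IRF8, which directs progenitors to monocytes and dendritic cells, fell from 962, 952 and 895 CPM to 280.1, 468, 469 and 532 CPM (−1.10 ± 0.19, adjusted p = 0.011), lowest in flask 9. ID2 fell from between 79.4 and 83.1 CPM to between 46.6 and 58.7 CPM (−0.65 ± 0.08, adjusted p = 0.00391), and EGR2 is given above. RUNX1 stood at 244, 226, 156 and 175 CPM against 207, 197 and 207 CPM (adjusted p = 0.928), above the parental range in flasks 9 and 10 and below it in flasks 11 and 12. KLF4, a monocyte factor, stood at 7.01, 11.6, 19.4 and 23.1 CPM against 11.6, 12.04 and 13.9 CPM (adjusted p = 0.62), with the opposite pairing. IKZF1, at 261 to 286 CPM against 244 to 250.1 CPM, did not pass (adjusted p = 0.114). CEBPD, GATA2, SPI1 and ID2 passed the test with each of the 7 libraries left out in turn. CEBPE and MYB lost the call without parental library 1, 2 or 3. CEBPA, CEBPB and GFI1 no longer passed without flask 9 or 10 or parental library 1, 2 or 3. IRF8 missed the threshold without parental library 1 or 2 (adjusted p = 0.051 to 0.171 for these losses).

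Several of these genes lie side by side in the genome, by the gene order of RefSeq on GRCh38.p14, and these loci were chosen after their values were seen. AZU1, PRTN3, ELANE and CFD follow each other on chromosome 19 and all 4 rose. Of their tested flanking genes PLPPR3, next to AZU1, rose (1.14, adjusted p = 0.0339), while PTBP1 (0.14, adjusted p = 0.22), MED16 (0.28, adjusted p = 0.231) and R3HDM4 (0.33, adjusted p = 0.0812) did not pass. EPX and MPO on chromosome 17 both rose, but MKS1 (0.20, adjusted p = 0.275) and LPO (−0.01, adjusted p = 0.961) between them did not pass, LPO being the peroxidase gene of secretions. Next to MPO, TSPOAP1 rose (1.010, adjusted p = 0.0225) and SUPT4H1 did not pass (−0.16, adjusted p = 0.218). PLPPR3 and TSPOAP1 lost the call without parental library 1, 2 or 3 (adjusted p = 0.0511 to 0.137 for these losses).

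Of 16 receptors of chemokines and other chemoattractants tested 7 fell (3 without parental library 1 or 2) and 3 rose (0 to 1 without flask 11 or 12 or parental library 1, 2 or 3), although the median was 0.15 (−0.158 without flask 11). Leaving out 4 members that passed the filter through 1 group only, 3 rose and 4 fell of 12 and the median was 0.44. CCR1 (ENSG00000163823), a receptor of inflammatory chemokines, stood at 5.30, 4.20, 5.93 and 6.55 CPM in flasks 9, 10, 11 and 12 and at 43.9, 42.8 and 42.2 CPM in the parental libraries (−2.96 ± 0.15, adjusted p = 0.000173). CCR2, the receptor that brings monocytes out of the marrow, stood at 4.17, 12.9, 10.9 and 11.2 CPM against 68.2, 70.8 and 62.5 CPM (−2.78 ± 0.32, adjusted p = 0.0025), with flask 9 the lowest. CX3CR1, the fractalkine receptor, stood at 13.8, 15.7, 7.38 and 7.25 CPM against 22.1, 24.2 and 23.4 CPM (−1.08 ± 0.28, adjusted p = 0.0363), lower in flasks 11 and 12. CCR3, at 0.432 to 1.33 CPM in the parental libraries and 0.0372 to 0.158 CPM in the flasks, and CCR6 (0.611 to 0.849 CPM and 0.0315 to 0.171 CPM) also fell (adjusted p = 0.0166 and 0.011). CCR3 and CCR6 passed the filter through the parental libraries only, so their direction was largely set by the filter. CXCR4, the receptor that retains cells in the marrow, fell from 141, 145 and 138 CPM to 75.5, 85.5, 102 and 107 CPM (−0.61 ± 0.12, adjusted p = 0.0146). PTAFR, the receptor of platelet-activating factor, rose from between 6.33 and 7.42 CPM to between 8.55 and 22.6 CPM (1.26 ± 0.31, adjusted p = 0.0329). LTB4R, a leukotriene receptor gene, rose from between 22.1 and 26.6 CPM to between 29.2 and 40.2 CPM (0.45 ± 0.13, adjusted p = 0.0447). C3AR1, a complement receptor gene, rose from between 0.396 and 0.591 CPM to between 0.818 and 2.05 CPM (1.35 ± 0.38, adjusted p = 0.0483). CCR1 and CCR2 passed the test with each of the 7 libraries left out in turn. CX3CR1 and PTAFR lost the call without flask 11 or 12 or parental library 1, 2 or 3. CCR3, CCR6 and CXCR4 no longer passed without parental library 1 or 2. LTB4R missed the threshold without flask 10 or 12 or parental library 1, 2 or 3. C3AR1 lost the call without flask 9, 11 or 12 or parental library 1, 2 or 3 (adjusted p = 0.0526 to 0.177 for these losses).

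Other monocyte genes moved in both directions: of 19 tested 4 rose (1 to 2 without flask 12 or parental library 1, 2 or 3) and 3 fell (1 without flask 11 or 12 or parental library 1, 2 or 3), with a median of 0.28. Leaving out 4 members that passed the filter through the FL flasks only, 4 rose and 3 fell of 15 and the median was 0.14. Of all genes tested 7.77% rose and 8.64% fell. FCGR1A, the high-affinity IgG receptor, rose from 15.6, 16.3 and 14.5 CPM to 28.1, 42.2, 37.1 and 36.2 CPM (1.21 ± 0.14, adjusted p = 0.00252); it has near-identical copies, so its level is uncertain. CLEC12A, a myeloid lectin, rose from between 0.628 and 0.828 CPM to between 1.44 and 3.66 CPM (1.74 ± 0.35, adjusted p = 0.0166). CD68 rose from between 83.2 and 87.7 CPM to between 96.3 and 119 CPM (0.32 ± 0.08, adjusted p = 0.0341). CD36, a scavenger and fatty acid receptor, fell from 6.72, 6.28 and 6.19 CPM to 2.50, 1.71, 1.26 and 1.86 CPM (−1.80 ± 0.24, adjusted p = 0.004). MS4A6A fell from 61.2, 63.3 and 60.8 CPM to 21.6, 51.5, 29.5 and 24.8 CPM (−0.96 ± 0.27, adjusted p = 0.0468), where flask 10 stayed nearest the parental libraries. ITGAM, the CD11b gene, stood at 44.2, 35.1, 32.9 and 28.9 CPM against 25.6, 27.7 and 27.9 CPM (adjusted p = 0.0984), and the monocyte marker CD14 was under 1 CPM in all 7 libraries. FCGR1A and CD36 passed the test with each of the 7 libraries left out in turn. CLEC12A lost the call without parental library 1 or 2. CD68 no longer passed without flask 10 or 12 or parental library 1, 2 or 3. MS4A6A missed the threshold without flask 9, 11 or 12 or parental library 1, 2 or 3 (adjusted p = 0.0512 to 0.147 for these losses).

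Of 8 genes of antigen presentation by MHC class II 5 fell (3 without flask 12 or parental library 1 or 2) and none rose (0 at an unadjusted p under 0.05, 0 by DESeq2, 0 by limma-voom), with a median of −1.64. With 3 members left out that passed the filter through the parental libraries only, 3 fell of 5 (median −1.47). CIITA, their master activator, stood at 7.15, 8.07, 9.58 and 7.78 CPM against 20.8, 26.2 and 20.7 CPM (−1.47 ± 0.14, adjusted p = 0.0013). CD74, the invariant chain, stood at 125, 125, 109.7 and 126 CPM against 247, 233 and 265 CPM (−1.03 ± 0.07, adjusted p = 0.000493), the flasks being level with each other. HLA-DQB1 stood at 1.54, 7.55, 2.74 and 1.93 CPM against 12.4, 11.7 and 13.0 CPM (−1.85 ± 0.50, adjusted p = 0.0409), with flask 10 the least reduced. HLA-DPB1, which passed through the parental libraries only, held 1.25 to 1.51 CPM in the parental libraries, 0.0342 CPM in flask 9 and 0 in the other 3 flasks. HLA-DRA and HLA-DRB1 were not tested, and reads of HLA genes can go to identifiers of alternative sequences, so the levels of HLA genes are uncertain. Of 14 class I genes 4 rose (0 without parental library 1 or 2) and none fell (1 at an unadjusted p under 0.05, 0 by DESeq2, 0 by limma-voom, and 1 without flask 11), with a median of 0.22, among them TAPBP, the peptide-loading chaperone tapasin (between 27.3 and 34.4 CPM to between 44.8 and 53.5 CPM, 0.62 ± 0.11, adjusted p = 0.0102). B2M stood at 525 to 815 CPM against 557 to 628 CPM (adjusted p = 0.418). CIITA and CD74 passed the test with each of the 7 libraries left out in turn. HLA-DQB1 lost the call without flask 11 or 12 or parental library 1, 2 or 3. TAPBP no longer passed without parental library 1 or 2 (adjusted p = 0.0542 to 0.126 for these losses).

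Of 30 interferon-stimulated genes 7 rose (2 to 4 without parental library 1, 2 or 3) and 1 fell (0 without parental library 1 or 2 and 2 without flask 9), with a median of 0.38. The filter was passed by 2 members through the FL flasks only, and without them 5 rose and 1 fell of 28 (median 0.36). HERC5, a ligase of the ubiquitin-like protein ISG15, rose from 11.1, 11.3 and 9.90 CPM to 21.0, 19.1, 18.7 and 19.0 CPM (0.85 ± 0.10, adjusted p = 0.00272). HERC6 rose from between 1.58 and 1.90 CPM to between 4.51 and 5.85 CPM (1.49 ± 0.19, adjusted p = 0.00375). OAS3, which senses double-stranded RNA, rose from between 2.25 and 2.41 CPM to between 3.79 and 8.59 CPM (1.45 ± 0.29, adjusted p = 0.0165). GBP2 fell from between 12.2 and 14.8 CPM to between 4.05 and 7.60 CPM (−1.30 ± 0.24, adjusted p = 0.0138). Of 20 Fc receptor and lectin genes 6 rose (3 without parental library 1 or 2) and none fell (1 at an unadjusted p under 0.05, 1 by DESeq2, 1 by limma-voom, and 2 without flask 11), with a median of 0.41. With 4 members left out that passed the filter through the FL flasks only, 6 rose of 16 (median 0.375). The share of all genes tested that rose was 7.77%, and 8.64% fell. TYROBP (DAP12), a signalling adaptor of TREM and other receptors of myeloid and NK cells, rose from 14.6, 14.6 and 16.4 CPM to 47.6, 33.6, 42.7 and 30.1 CPM (1.34 ± 0.17, adjusted p = 0.00341). FCER1G, the signalling gamma chain of Fc receptors, rose from 0.418, 0.554 and 0.396 CPM to 4.48, 2.71, 15.6 and 10.4 CPM (4.18 ± 0.68, adjusted p = 0.00906), highest in flask 11. CLEC11A, a secreted growth factor of blood cells, rose from between 209 and 272 CPM to between 456 and 712 CPM (1.25 ± 0.17, adjusted p = 0.00518). CD33 rose from between 49.6 and 51.6 CPM to between 63.8 and 84.4 CPM (0.51 ± 0.10, adjusted p = 0.0161). FCGR2B, the inhibitory IgG receptor, stood at 8.83, 10.2, 27.6 and 21.9 CPM against 37.6, 35.2 and 36.9 CPM, below the parental range in all 4 flasks and lowest in flasks 9 and 10 (adjusted p = 0.0807). HERC5, HERC6, TYROBP and CLEC11A passed the test with each of the 7 libraries left out in turn. OAS3, GBP2, FCER1G and CD33 lost the call without parental library 1 or 2 (adjusted p = 0.0534 to 0.0833 for these losses).

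Adhesion genes changed in both directions, 8 of 25 rising (2 to 5 without parental library 1, 2 or 3) and 4 falling (2 without parental library 1 or 2), with a median of 0.20. ITGAL, the alpha chain of the leukocyte integrin LFA-1, fell from 522, 486 and 504 CPM to 271, 256, 216 and 221 CPM (−1.06 ± 0.09, adjusted p = 0.000904), and its partner ITGB2 rose from 259, 269 and 318 CPM to 499, 351, 612 and 644 CPM (0.90 ± 0.20, adjusted p = 0.0224). ITGA6 fell from 15.7, 16.5 and 18.1 CPM to 0.924, 5.99, 4.67 and 3.19 CPM (−2.18 ± 0.48, adjusted p = 0.0218), with flask 9 the lowest. PECAM1 (CD31) rose from 58.9, 56.2 and 57.5 CPM to 99.3, 112, 177 and 173 CPM (1.29 ± 0.21, adjusted p = 0.00968), with flasks 11 and 12 the higher pair, and CD44, a hyaluronan receptor, from between 88.5 and 102 CPM to between 132 and 157 CPM (0.61 ± 0.08, adjusted p = 0.00483). SPN (CD43) rose from between 298 and 328 CPM to between 425 and 520.4 CPM (0.59 ± 0.08, adjusted p = 0.00415) and JAML fell from between 4.54 and 5.37 CPM to between 0.483 and 1.42 CPM (−2.32 ± 0.32, adjusted p = 0.00505). ITGAL, CD44, SPN and JAML passed the test with each of the 7 libraries left out in turn. ITGB2 and PECAM1 lost the call without parental library 1 or 2. ITGA6 no longer passed without flask 12 or parental library 1, 2 or 3 (adjusted p = 0.0521 to 0.103 for these losses).

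NRP1 and ALDH1A3 had the largest falls among genes with a mean log2 CPM of at least 3 whose groups did not overlap. NRP1 (ENSG00000099250), a co-receptor of semaphorins and VEGF, stood at 2.40, 4.05, 5.11 and 3.99 CPM in flasks 9, 10, 11 and 12 and at 54.8, 48.5 and 44.7 CPM in the parental libraries (−3.66 ± 0.22, adjusted p = 0.000311). ALDH1A3, an enzyme that makes retinoic acid, stood at 17.0, 64.3, 16.0 and 27.7 CPM against 394, 374 and 379.9 CPM (−3.62 ± 0.47, adjusted p = 0.00403). All flasks lay far below the parental range for both genes, and flask 10 was the least reduced for ALDH1A3. Of 29 axon guidance genes 4 rose (2 without flask 11 or 12 or parental library 1 or 2) and 3 fell, with a median of 0.15 (−0.035 with the replicate block). Leaving out 3 members that passed the filter through 1 group only, 3 rose and 2 fell of 26 and the median was 0.15. These counts lie near the shares over all genes tested, 7.77% higher and 8.64% lower. EPHB3, an ephrin receptor, fell from 26.8, 34.8 and 27.6 CPM to 4.31, 7.58, 7.66 and 11.01 CPM (−1.96 ± 0.27, adjusted p = 0.00504). ROBO1, a Slit receptor, fell from between 0.591 and 1.12 CPM to between 0.0630 and 0.0998 CPM (−3.52 ± 0.41, adjusted p = 0.0025). ROBO1 passed the filter through the parental libraries only, so its direction was largely set by the filter. The plexins PLXNB2 (between 173 and 198 CPM to between 299 and 350.0 CPM, 0.79 ± 0.08, adjusted p = 0.00156) and PLXND1 (between 172 and 180.3 CPM to between 305 and 428 CPM, 1.005 ± 0.12, adjusted p = 0.00334) rose. Of 15 retinoid and aldehyde genes 2 rose (1 without parental library 1 or 2) and 4 fell (1 to 2 without flask 10 or 11 or parental library 1, 2 or 3), with a median of −0.17. DHRS9, a retinol dehydrogenase, rose from 15.0, 17.1 and 15.7 CPM to 41.7, 56.2, 43.2 and 49.0 CPM (1.58 ± 0.12, adjusted p = 0.000696). RXRA, a retinoid receptor, rose from between 66.0 and 91.3 CPM to between 100.0 and 147 CPM (0.77 ± 0.16, adjusted p = 0.0187). CYP26B1, which degrades retinoic acid, fell from between 6.56 and 8.93 CPM to between 0.409 and 2.69 CPM (−2.50 ± 0.49, adjusted p = 0.0155). NRP1, ALDH1A3, EPHB3, PLXNB2, PLXND1 and DHRS9 passed the test with each of the 7 libraries left out in turn. RXRA and CYP26B1 lost the call without parental library 1 or 2 (adjusted p = 0.0621 to 0.0957 for these losses).

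Genes of cell division were lower by small amounts in the FL flasks. Of 39 genes of the G1-S transition and DNA replication 20 fell (3 without parental library 1 or 2) and none rose (1 at an unadjusted p under 0.05, 1 by DESeq2, 0 by limma-voom, and 1 without flask 11 or parental library 3), with a median of −0.33. Of 40 genes of G2 and mitosis 13 fell (0 to 7 without parental library 1, 2 or 3) and none rose (0 at an unadjusted p under 0.05, 0 by DESeq2, 0 by limma-voom), with a median of −0.31. RFC3, a subunit of the clamp loader, stood at 64.5, 59.6, 60.0 and 64.4 CPM against 97.8, 104 and 95.7 CPM (−0.68 ± 0.06, adjusted p = 0.0013). MCM6, a subunit of the replicative helicase, stood at 208, 196, 183 and 193 CPM against 289, 260.0 and 264 CPM (−0.47 ± 0.07, adjusted p = 0.0052). CDK1, the kinase of mitotic entry, stood at 100.0, 99.9, 119.9 and 122 CPM against 162, 174 and 152 CPM (−0.56 ± 0.10, adjusted p = 0.0105), lower in flasks 9 and 10 than in flasks 11 and 12. The mitotic list showed the same order of the flasks: in flasks 9 and 10 all 40 genes lay below every parental library, and 36 did in flask 11 and 33 in flask 12, against 40.0%, 39.8%, 37.9% and 38.3% of all genes tested. MKI67, the proliferation marker Ki-67, stood at 489, 470.0, 644 and 693 CPM against 737, 729.5 and 720.3 CPM (adjusted p = 0.118), below the parental range in every flask. The cyclin-dependent kinase inhibitor CDKN1A stood at 361, 150.2, 326 and 345 CPM against 199.9, 199 and 223 CPM (adjusted p = 0.225), low in flask 10 and high in the other 3. CDK6, at 272 to 335 CPM against 291 to 312 CPM, CCND3, at 221 to 332 CPM against 283 to 296 CPM, and CDKN1B, at 46.0 to 55.6 CPM against 46.0 to 49.3 CPM, did not pass (adjusted p = 0.927, 0.805 and 0.35). RFC3 and MCM6 passed the test with each of the 7 libraries left out in turn. CDK1 lost the call without parental library 1 or 2 (adjusted p = 0.0567 to 0.0649).

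Genes of ribosome assembly went the same way: 16 of 30 ribosome biogenesis genes fell (1 without parental library 1 or 2) and none rose (0 at an unadjusted p under 0.05, 0 by DESeq2, 0 by limma-voom), with a median of −0.30. NPM1, the nucleophosmin gene, stood at 1364, 1430, 1552 and 1480 CPM against 2009, 2013 and 1793 CPM (−0.41 ± 0.07, adjusted p = 0.00933). NOP58, a box C/D core protein gene, stood at 171 to 181 CPM against 219 to 231 CPM (−0.36 ± 0.05, adjusted p = 0.00655). Of 32 targets of ATF4, the factor of the amino acid response, 11 fell (4 to 5 without parental library 1 or 2 and 18 without flask 9) and 1 rose, with a median of −0.28. MTHFD2, a mitochondrial folate enzyme, fell from 260.4, 265 and 251 CPM to 186, 157, 187 and 191 CPM (−0.52 ± 0.08, adjusted p = 0.00655). ASNS, asparagine synthetase, fell from between 83.6 and 91.7 CPM to between 54.4 and 74.1 CPM (−0.53 ± 0.11, adjusted p = 0.018). SLC3A2, a chain of amino acid transporters, fell from between 230.1 and 244 CPM to between 173 and 194 CPM (−0.40 ± 0.06, adjusted p = 0.008). ATF5 rose, from between 23.7 and 29.8 CPM to between 48.7 and 77.9 CPM (1.34 ± 0.17, adjusted p = 0.00333), and ATF4 itself stood at 511 to 535 CPM against 582 to 592 CPM (−0.18 ± 0.05, adjusted p = 0.0456). Of 38 nuclear genes of the respiratory chain 9 fell (0 to 5 without flask 12 or parental library 1 or 2) and none rose (0 at an unadjusted p under 0.05, 0 by DESeq2, 0 by limma-voom), with a median of −0.16. Lysosomal genes went the other way, with 11 of 30 higher (1 to 2 without parental library 1 or 2), 1 lower (0 without parental library 1) and a median of 0.27. GRN, the progranulin gene, rose from 178, 179.6 and 213 CPM to 359, 477, 443 and 387 CPM (1.13 ± 0.12, adjusted p = 0.00159). LAMP2 rose from between 111 and 115 CPM to between 136 and 161 CPM (0.41 ± 0.07, adjusted p = 0.0113). CTSH, cathepsin H, fell from between 2.18 and 2.73 CPM to between 0.252 and 0.865 CPM (−2.19 ± 0.38, adjusted p = 0.0105). NOP58, MTHFD2, SLC3A2, ATF5 and GRN passed the test with each of the 7 libraries left out in turn. NPM1, ASNS and LAMP2 lost the call without parental library 1 or 2. ATF4 no longer passed without flask 11 or 12 or parental library 1, 2 or 3. CTSH missed the threshold without parental library 1 (adjusted p = 0.0561 to 0.179 for these losses).

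**Figure D3:**
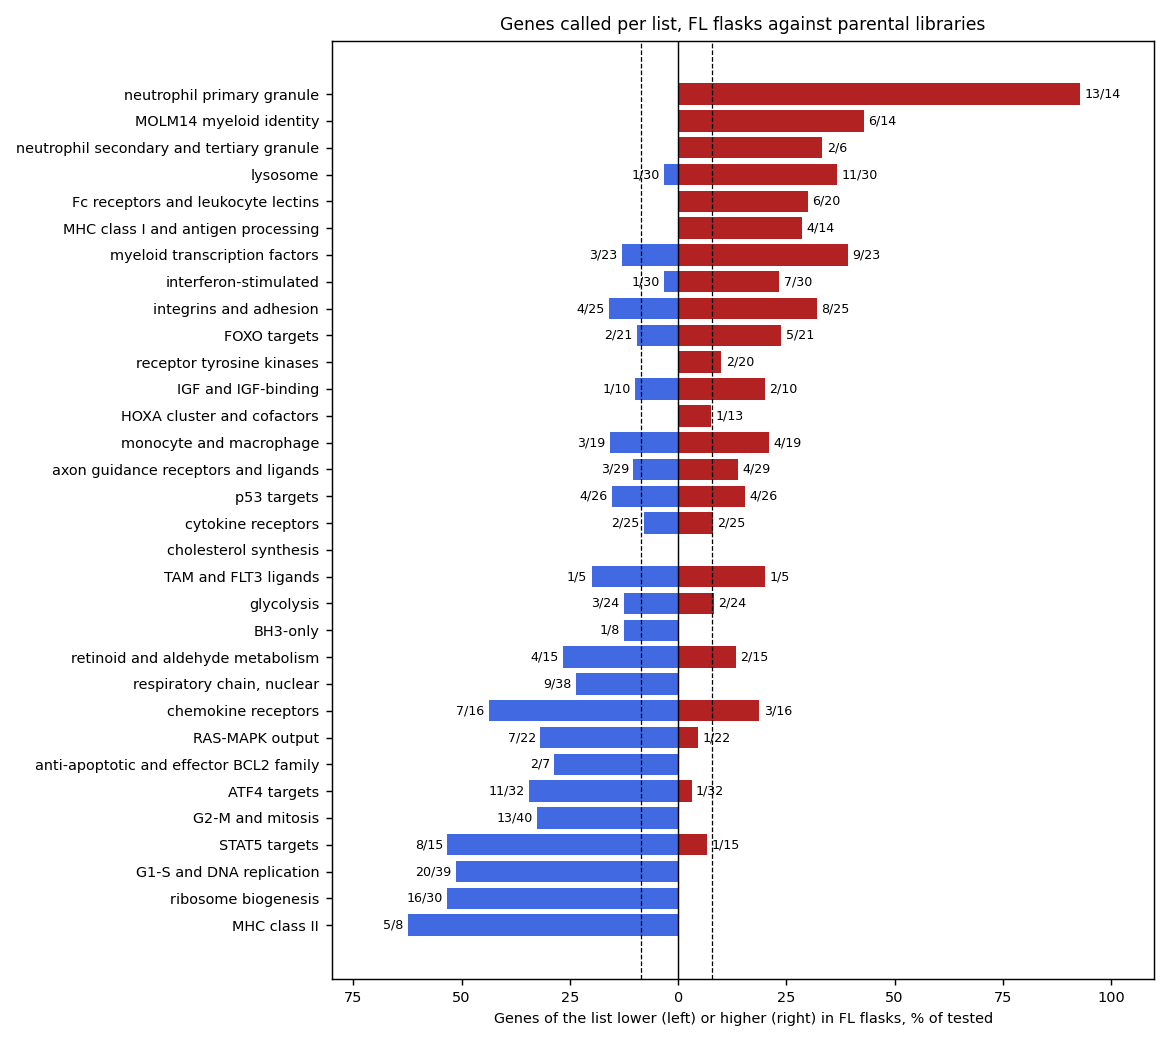
Share of the tested genes of each named list (those with 5 or more genes tested) that were higher (right, red) or lower (left, blue) in the FL flasks than in the parental libraries at an adjusted p under 0.05, in percent, with the number called and the number tested beside each bar. Dashed lines mark the shares over all 14819 genes tested, 7.77% higher and 8.64% lower. The primary granule list (13 of 14 higher) and the MHC class II (5 of 8 lower), STAT5 (8 of 15 lower), ribosome biogenesis (16 of 30 lower) and G1-S (20 of 39 lower) lists reach furthest.

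The cholesterol and glycolysis lists separated flask 10 from the others. By list median, flask 10 was also the lowest flask for the RAS and ERK list and for the mitotic list. It was the highest flask for fatty acid uptake and oxidation. Of 24 genes of cholesterol synthesis and uptake none rose (1 at an unadjusted p under 0.05, 0 by DESeq2, 0 by limma-voom, and 3 without flask 10) and none fell (1 at an unadjusted p under 0.05, 0 by DESeq2, 0 by limma-voom), with a median of −0.02. Yet 22 of them lay below every parental library in flask 10, against 9, 4 and 4 in flasks 9, 11 and 12. Above every parental library lay none in flask 10 and 11, 13 and 14 in flasks 9, 11 and 12, where 36.6%, 34.0% and 35.6% of all genes tested did (38.4% in flask 10). The median difference from the parental mean was −0.00, −0.40, 0.13 and 0.19 on the log2 scale in flasks 9, 10, 11 and 12 for cholesterol genes and −0.16, −0.65, −0.04 and −0.03 for 24 glycolysis genes, of which 2 rose (0 to 1 without flask 9, 11 or 12 or parental library 1 or 2) and 3 fell (0 without parental library 1 or 2 and 6 without flask 10). Farnesyl diphosphate synthase (FDPS) stood at 236, 179, 240.1 and 259 CPM against 261, 259 and 234 CPM and IDI1, an isomerase of the same pathway, at 56.3, 36.3, 63.0 and 59.9 CPM against 67.01, 73.8 and 62.0 CPM (adjusted p = 0.458 and 0.233). The glycolysis counts lie near the shares over all genes tested, 7.77% higher and 8.64% lower. Among glycolysis genes, LDHA stood at 918, 609, 1042 and 1015 CPM against 1216, 1222 and 1118 CPM (adjusted p = 0.135). ENO1, enolase 1, stood at 2720, 1986, 2541 and 2459 CPM against 3090, 3155 and 3098 CPM (−0.36 ± 0.10, adjusted p = 0.0437). HK3, a hexokinase of myeloid cells, rose from between 1.37 and 2.12 CPM to between 3.27 and 17.9 CPM (2.57 ± 0.54, adjusted p = 0.0193), least in flask 10. ENO1 lost the call without flask 11 or 12 or parental library 1, 2 or 3. HK3 no longer passed without parental library 1, 2 or 3 (adjusted p = 0.0607 to 0.153 for these losses).

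Of 7 anti-apoptotic and effector genes of the BCL2 family 2, MCL1 and BCL2, fell (0 to 1 without flask 9 or 12 or parental library 1, 2 or 3), where 8.64% of all genes tested did. BCL2 fell from 141, 132 and 127 CPM to 99.7, 116, 105 and 104 CPM (−0.33 ± 0.07, adjusted p = 0.0214). Of 8 BH3-only genes 1 fell (0 without parental library 1 or 2 and 2 without flask 10). It was PMAIP1, which encodes NOXA, and went from between 18.4 and 21.2 CPM to between 12.7 and 14.2 CPM (−0.53 ± 0.10, adjusted p = 0.013). Of 26 p53 targets 4 rose (0 to 2 without flask 12 or parental library 1, 2 or 3) and 4 fell (2 without parental library 1 or 2), with a median of 0.06. Shares over all genes tested were 7.77% higher and 8.64% lower. FAS, a death receptor, rose from between 10.2 and 12.3 CPM to between 15.6 and 19.8 CPM (0.65 ± 0.12, adjusted p = 0.0138), and BTG2, an anti-proliferative gene, fell from 36.7, 35.3 and 38.6 CPM to 9.17, 14.6, 16.9 and 16.1 CPM (−1.38 ± 0.19, adjusted p = 0.00504). In flask 9, 19 of the 26 genes lay above every parental library, against 9, 11 and 11 in flasks 10, 11 and 12, where 38.4%, 34.0% and 35.6% of all genes did (36.6% in flask 9). BTG2 passed the test with each of the 7 libraries left out in turn. BCL2 lost the call without flask 12 or parental library 1 or 2. PMAIP1 and FAS no longer passed without parental library 1 or 2 (adjusted p = 0.0504 to 0.108 for these losses).

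HOXA9 and MEIS1, a homeobox pair that sustains leukaemias with rearranged KMT2A, stood at 76.0 to 90.4 CPM against 85.4 to 89.6 CPM and at 47.5, 35.0, 36.7 and 35.3 CPM against 42.4, 42.2 and 43.3 CPM (adjusted p = 0.478 and 0.425), with flask 9 alone above the parental range for MEIS1. Of 13 genes of the HOXA cluster and its cofactors 1, HOXA13, rose (from between 36.8 and 37.5 CPM to between 51.5 and 56.4 CPM, 0.53 ± 0.07, adjusted p = 0.00345). That count lies near the 7.77% of all genes tested that rose. HOXA7 and HOXA3 were lowest in flask 9, although the list's median difference from the parental mean was not (−0.20, −0.28, −0.30 and −0.18 in flasks 9, 10, 11 and 12). HOXA7 stood at 3.59, 13.0, 12.01 and 12.5 CPM against 14.8, 14.6 and 19.6 CPM and HOXA3 at 3.32, 18.1, 9.36 and 10.2 CPM against 11.5, 10.8 and 12.4 CPM (adjusted p = 0.263 and 0.823). All 14 genes listed as myeloid markers of MOLM14 passed the filter, and 6 rose (1 without parental library 1 or 2). Most markers of other lineages were near 0: the summed level of 13 erythroid genes was 0.466 to 0.929 CPM in the flasks and 0.288 to 0.965 CPM in the parental libraries. The mast cell and basophil list summed to 57.0 to 84.3 CPM in the flasks and 14.3 to 20.0 CPM in the parental libraries. GATA2 made up most of it, and the defining genes CPA3, FCER1A and HDC were too low to test. TPSB2, a mast cell tryptase gene with near-identical copies, rose from 0.0369 to 0.0720 CPM (1 to 2 counts a library, so it passed the filter through the FL flasks only) to 2.12 to 5.77 CPM (adjusted p = 0.00173). The fibroblast and endothelial list summed to 101 to 180.1 CPM in the flasks and 60.8 to 62.8 CPM in the parental libraries, most of it PECAM1, while CDH5, KDR and COL3A1 were at 0. The T and NK cell list summed to 50.6 to 69.9 CPM and 41.8 to 46.2 CPM, most of it NCAM1 and NKG7, with CD3E and CD2 at 0. In the B cell list PAX5 stood at 54.6 to 75.1 CPM against 68.0 to 74.4 CPM (adjusted p = 0.683), with MS4A1 at 0. HOXA13 passed the test with each of the 7 libraries left out in turn.

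Outside these lists, the largest rises among genes with complete separation of the groups and a mean log2 CPM of at least 3 included CA2, a carbonic anhydrase gene, at 36.0, 105, 118 and 114 CPM against 4.18, 3.43 and 2.88 CPM (4.73 ± 0.46, adjusted p = 0.00147). HOMER3, a scaffold protein gene, stood at 304, 310.4, 363 and 386 CPM against 53.1, 51.1 and 66.5 CPM (2.58 ± 0.13, adjusted p = 0.000173). Flask 9 was the lowest flask for CA2, and the flasks were close together for HOMER3. CCNA1, the cyclin A1 gene of germ and myeloid leukaemia cells, stood at 17.8, 49.2, 72.6 and 72.7 CPM against 6.17, 7.09 and 5.72 CPM (3.07 ± 0.47, adjusted p = 0.00772). TENT5A rose from between 17.3 and 18.8 CPM to between 75.6 and 172 CPM (2.75 ± 0.29, adjusted p = 0.00198). EVPL, the envoplakin gene, rose from between 4.36 and 4.79 CPM to between 8.48 and 62.1 CPM (3.06 ± 0.63, adjusted p = 0.0175). TMTC2 rose from between 4.03 and 4.88 CPM to between 14.2 and 52.9 CPM (2.97 ± 0.44, adjusted p = 0.0067). The other genes with the largest rises were PRG2, PRTN3, CFD, MPO, CEBPD and ELANE, given above. Beside those already described, SLC44A1, a choline transporter, fell from 36.3, 36.0 and 36.0 CPM to 5.17, 8.997, 8.57 and 4.56 CPM (−2.40 ± 0.24, adjusted p = 0.00147). DTX4, a ligase of the Deltex family, fell from between 28.1 and 35.7 CPM to between 5.03 and 10.2 CPM (−1.99 ± 0.22, adjusted p = 0.002). DZIP1 fell from between 25.3 and 27.8 CPM to between 5.20 and 9.74 CPM (−1.97 ± 0.20, adjusted p = 0.0016). AKAP7, an anchor of protein kinase A, fell from between 19.6 and 23.7 CPM to between 2.67 and 7.81 CPM (−2.0 ± 0.30, adjusted p = 0.00657). CA2, HOMER3, TENT5A, TMTC2, SLC44A1, DTX4, DZIP1 and AKAP7 passed the test with each of the 7 libraries left out in turn. CCNA1 lost the call without parental library 1. EVPL no longer passed without parental library 1, 2 or 3 (adjusted p = 0.0523 to 0.0881 for these losses).

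The FL flasks were more spread than the other groups of libraries. The median SD of log2 CPM over the tested genes was 0.198 over the 4 FL flasks, 0.114 over the 3 parental libraries and 0.129 over the 4 FGF2 flasks. The highest and the lowest library differed at least 4-fold for 930 genes among the 4 FL flasks and 203 among the 3 parental libraries. Flask 9 stood apart by losses and flask 10 by losses and gains: 275 genes were at least 2-fold below all 6 other libraries in flask 9, 128 in flask 10, 34 in flask 11 and 39 in flask 12, and 40, 64, 20 and 11 were at least 2-fold above them. The flasks disagreed in direction for 58 genes, that is, at least 1 flask lay 2-fold or more above the highest parental library and at least 1 flask 2-fold or more below the lowest. Without flask 9 the number was 30 and without flask 10 it was 25.

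Among the 12 genes that disagreed with the widest range, 3 have no name. UNCX, a homeobox gene, stood at 0.274, 31.5, 0.567 and 0.665 CPM in flasks 9, 10, 11 and 12 and at 3.73, 3.84 and 5.25 CPM in the parental libraries, so it was high in flask 10 and low in the other 3. ILDR2 stood at 6.02, 33.4, 1.07 and 0.233 CPM against 3.25, 3.47 and 3.92 CPM, also highest in flask 10. TBX18, a T-box gene, was listed at 0, 3.61, 0 and 0 CPM against 0.708, 0.960 and 1.40 CPM, present in flask 10 alone. Flask 9 was the only flask above the parental range for 6 of these genes, 2 of them without a name. NPY, the neuropeptide Y gene, stood at 5.44, 0, 0.0315 and 0 CPM against 1.83, 2.51 and 2.48 CPM, and the imprinted gene MEST at 4.07, 0.595, 0.0630 and 0 CPM against 0.225, 0.702 and 0.252 CPM. TCEA3, an elongation factor gene, stood at 7.08, 0.595, 0.441 and 0.0665 CPM against 0.965, 0.886 and 1.15 CPM, and HRC, a calcium-binding protein gene, at 7.12, 0.967, 0.441 and 0.0998 CPM against 2.80, 2.81 and 2.56 CPM. IGSF10 was high in flasks 9 and 10 and low in flasks 11 and 12, at 15.2, 11.6, 0.189 and 0.732 CPM against 2.99, 2.29 and 2.34 CPM. RTL5, a gene derived from a retrotransposon, was above the parental range in flasks 11 and 12, below it in flask 9 and near 0 in flask 10, at 0.992, 0.0372, 4.54 and 2.63 CPM against 1.54, 1.55 and 2.12 CPM.

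At a mean log2 CPM of at least 3, the widest ranges over the flasks after EPX and PRG2 fell into a few orders. FADS2, the delta-6 fatty acid desaturase, stood at 24.2, 4.61, 87.3 and 119 CPM in flasks 9, 10, 11 and 12 and at 67.5, 63.5 and 65.3 CPM in the parental libraries, far below them in flasks 9 and 10 and above them in flasks 11 and 12. CD93, a receptor of early myeloid cells, stood at 14.6, 83.7, 173 and 161 CPM against 127, 127 and 129.7 CPM, so it was lowest in flask 9, below the parental range in flask 10 and above it in flasks 11 and 12. CD209, the lectin DC-SIGN, stood at 2.02, 2.56, 34.8 and 27.4 CPM against 9.32, 7.72 and 9.54 CPM, and FCER2, the low-affinity IgE receptor CD23, at 4.48, 2.56, 42.5 and 65.2 CPM against 6.46, 5.13 and 6.51 CPM. Both were below the parental range in flasks 9 and 10 and far above it in flasks 11 and 12. SLC22A23, a transporter gene, was high in flask 9 and below the parental range in the other 3, at 70.4, 6.39, 4.70 and 5.42 CPM against 16.2, 14.3 and 16.9 CPM. NPDC1 was above the parental range in flasks 10 and 12 and below it in flask 9, at 6.47, 67.3, 17.2 and 38.8 CPM against 14.9, 16.2 and 25.1 CPM. For CADM1, an adhesion molecule gene, every flask lay below the parental range by very different amounts, at 25.5, 2.56, 1.32 and 5.45 CPM against 37.0, 35.1 and 40.2 CPM, and so it did for BEND4, at 0.103, 4.498, 12.1 and 11.9 CPM against 31.8, 32.8 and 30.0 CPM. The clock gene PER3 stood at 14.8, 20.4, 6.40 and 1.46 CPM against 21.7, 19.3 and 24.2 CPM, and only flask 10 reached the parental range. The read-through gene ANKHD1-EIF4EBP3 stood at 3.87, 1.78, 25.1 and 23.6 CPM against 40.7, 46.0 and 7.63 CPM, but the parental libraries disagreed as well and its reads can be assigned to its component genes. PLXNC1, a semaphorin receptor chosen after its values were seen, stood at 114, 25.8, 13.1 and 16.5 CPM against 18.2, 19.0 and 18.8 CPM, with flask 9 alone high.

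**Figure D4:**
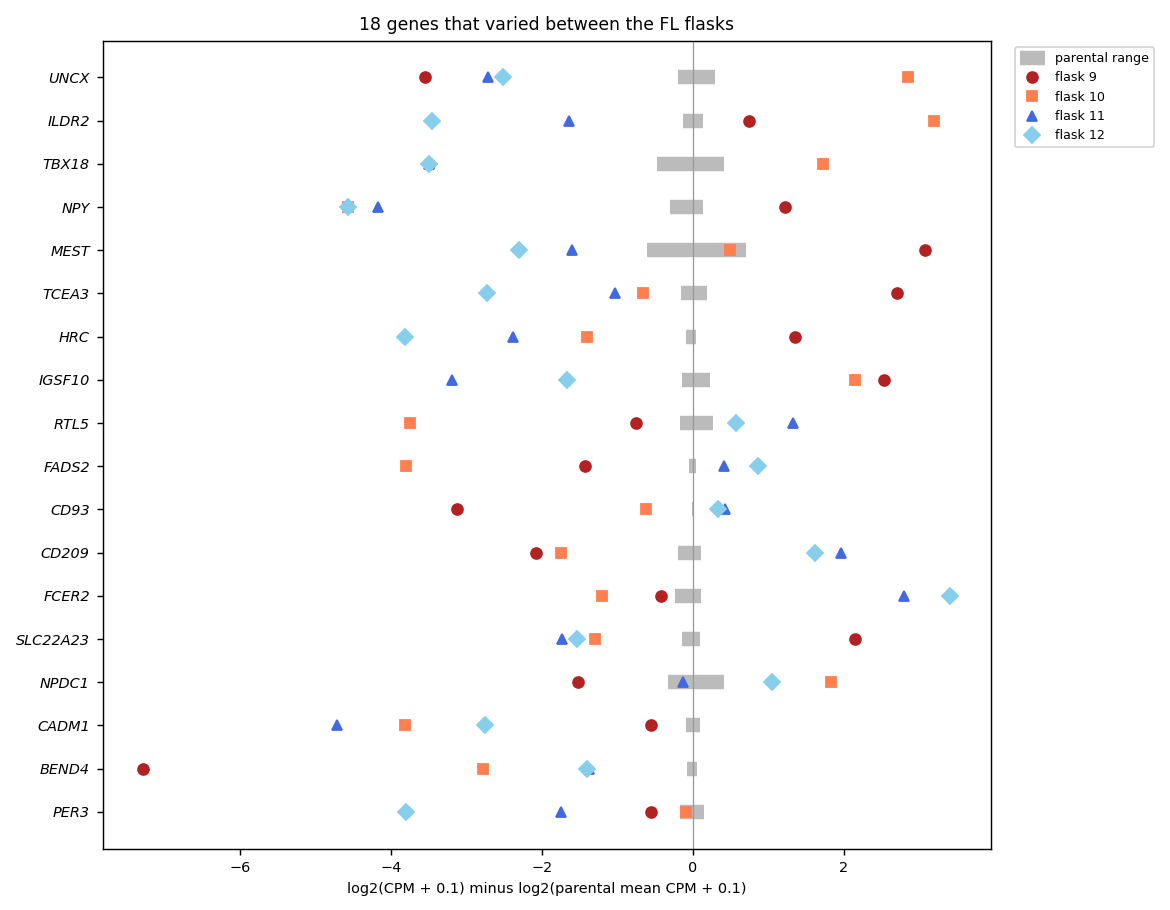
Difference of each FL flask from the mean of the 3 parental libraries, as log2(CPM + 0.1), for 18 named genes that varied between the flasks. Each marker is a flask and the grey bar spans the 3 parental libraries. Flasks 11 and 12 lie together for FADS2, CD209, FCER2 and CD93, flask 9 stands alone for SLC22A23 and NPY, and flask 10 for UNCX and TBX18.

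**Figure D5:**
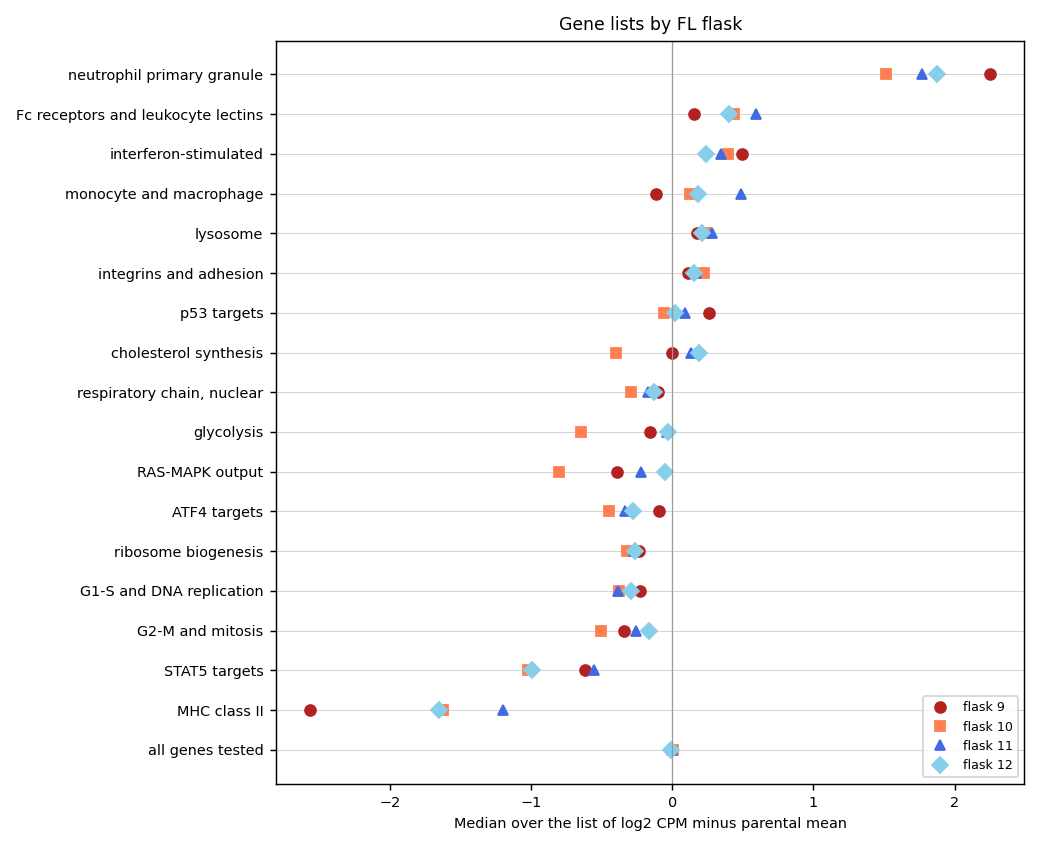
Median difference of each FL flask from the parental mean, on the log2 scale, over the tested genes of 17 lists. Each marker is a flask, and the lowest line gives the median over all 14819 genes tested, between −0.01 and 0.00 in every flask. The flasks agree in sign for the primary granule, STAT5, MHC class II, G1-S, G2-M and ribosome biogenesis lists, and flask 10 lies below the others for the glycolysis and cholesterol lists.

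The FL flasks were next tested against the 4 FGF2 flasks. Of 14512 genes tested 1003 (6.91%) were higher and 452 (3.11%) lower with FL. Without flask 9 the counts were 1787 and 1227, without flask 10 they were 1019 and 416, and without flask 5, 6, 7, 8, 11 or 12 they were 369 to 520 and 95 to 188. Of 14 primary granule genes 10 were higher with FL and none lower (0 at an unadjusted p under 0.05, 0 by DESeq2, 0 by limma-voom), with a median difference of 1.14 against −0.006 over all genes. MPO stood at 702, 172, 513 and 580.1 CPM in the FL flasks and 43.6, 46.1, 32.3 and 34.3 CPM in the FGF2 flasks (3.65 ± 0.38, adjusted p = 0.00148). AZU1 stood at 1743 to 2540 CPM and 829.9 to 1100 CPM (1.12 ± 0.14, adjusted p = 0.00252). LYZ stood at 321 to 908 CPM and 66.5 to 135 CPM (2.61 ± 0.36, adjusted p = 0.00441). ELANE (0.86 ± 0.25, adjusted p = 0.0558) and CTSG (0.54 ± 0.17, adjusted p = 0.0812) did not pass. The RAS-MAPK list had 7 of 22 genes lower with FL (4 without flask 5, 6, 8 or 11) and none higher (3 at an unadjusted p under 0.05, 1 by DESeq2, 0 by limma-voom, and 1 to 2 without flask 9 or 10), with a median of −0.11. EGR1 stood at 13.4, 21.3, 24.7 and 17.9 CPM with FL and 96.3, 92.2, 106 and 109 CPM with FGF2 (−2.38 ± 0.17, adjusted p = 0.000333). FOSB stood at 3.46 to 10.2 CPM and 27.6 to 47.1 CPM (−2.39 ± 0.30, adjusted p = 0.00295). FOS stood at 59.7 to 127 CPM and 215 to 249.5 CPM (−1.24 ± 0.19, adjusted p = 0.0066), and the phosphatase genes DUSP1 and DUSP2 differed by −1.505 and −1.27 (adjusted p = 0.00195 and 0.00235). STAT5 targets showed 2 of 14 genes lower (0 to 1 without flask 5, 6, 7, 8, 11 or 12 and 4 without flask 9) and 2 higher (0 to 1 without flask 5, 6, 7, 8, 11 or 12), with a median of −0.05. CISH stood at 10.6 to 13.5 CPM and 9.96 to 12.7 CPM (0.03 ± 0.12, adjusted p = 0.902), and PIM1 was higher with FL, at 2.57 to 8.48 CPM and 1.34 to 2.35 CPM (1.64 ± 0.34, adjusted p = 0.0203). A p above the threshold does not show that the lines were alike.

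By the rule for named genes, the largest differences included CD93, at 1.71 to 2.27 CPM with FGF2 against the values given above (5.72 ± 0.72, adjusted p = 0.00301). FADS2 was at 1.35 to 3.55 CPM with FGF2 (4.52 ± 0.89, adjusted p = 0.0171). HSD17B12, an enzyme of fatty acid elongation, was at 11.4, 53.1, 48.8 and 57.9 CPM with FL and 1.17 to 3.21 CPM with FGF2 (4.51 ± 0.54, adjusted p = 0.00249). MNDA, a nuclear antigen of myeloid cells, was at 19.5, 23.6, 67.4 and 56.8 CPM and 1.31 to 3.55 CPM (4.19 ± 0.50, adjusted p = 0.00235). CKAP4, a membrane protein gene, was at 42.0, 14.5, 85.7 and 76.0 CPM and 1.55 to 4.56 CPM (4.16 ± 0.55, adjusted p = 0.00388). CA2 was higher with FL as well, at 6.87 to 12.4 CPM with FGF2 (3.32 ± 0.37, adjusted p = 0.00201), and so was ANKRD52, at 25.1, 87.0, 82.4 and 92.0 CPM and 6.34 to 9.42 CPM (3.15 ± 0.38, adjusted p = 0.00236). IGFBP2, which stood at 25.9 to 53.4 CPM with FL, was at 0.436 to 1.92 CPM with FGF2 (5.15 ± 0.42, adjusted p = 0.000526). Beside the early response genes, PLEKHA5 was lower with FL, at 3.86 to 15.2 CPM and 20.4 to 22.6 CPM (−1.53 ± 0.37, adjusted p = 0.0332). So was the lymphoid factor SPIB, at 3.25 to 9.78 CPM and 12.3 to 15.7 CPM (−1.30 ± 0.29, adjusted p = 0.0243), and the kinesin gene KIF26B, at 12.9 to 45.0 CPM and 51.8 to 61.2 CPM (−1.28 ± 0.35, adjusted p = 0.0492). In the parental libraries HSD17B12 stood at 52.5 to 55.0 CPM and ANKRD52 at 81.4 to 86.5 CPM, near the level of flasks 10, 11 and 12 and above that of flask 9. MNDA stood at 8.60 to 9.86 CPM in the parental libraries, below every FL flask, and CKAP4 at 30.0 to 31.6 CPM, above flask 10 and below the other 3. All 4 genes were lower in the FGF2 flasks than in the parental libraries. MPO, AZU1, LYZ, EGR1, FOSB, FOS, DUSP1, DUSP2, CD93, HSD17B12, MNDA, CKAP4, CA2, ANKRD52 and IGFBP2 passed the test with each of the 8 libraries left out in turn. PIM1 lost the call without flask 6, 7, 8, 11 or 12. FADS2 no longer passed without flask 5, 6, 7, 8 or 11. PLEKHA5 and KIF26B missed the threshold without flask 5, 6, 7, 8, 10, 11 or 12. SPIB lost the call without flask 5, 6, 7, 8 or 12 (adjusted p = 0.0507 to 0.128 for these losses).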

How the data were processed

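RNA-seq of 7 libraries was used for the main comparison and 4 FGF2 libraries for the other. The authors deposited 1 table of estimated counts per gene; per the submitters' processing notes, kallisto and GRCh37 were used, and versions, trimming and any length scaling are not given in the sources used here. Only 0.054% of the values above 0 were whole (within 1e-06), and all were rounded before testing. Of 39293 identifiers, 28848 (73.4%) matched a gene name; the others were tested too.

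edgeR 4.0.16 in R 4.3.3 was run with TMM factors over all 14 libraries, filterByExpr (minimum count 10, minimum total 15), robust glmQLFit, glmQLFTest and Benjamini-Hochberg adjustment over all genes tested, at 0.05. With 5 residual degrees of freedom, the common biological coefficient of variation was 0.198 between the FL and parental libraries. CPM follow TMM scaling; flask differences use log2 CPM with a prior count of 2. A gene was said to disagree between flasks where at least 1 flask lay at least 1 log2 unit above the highest and at least 1 flask at least 1 below the lowest parental library; no test was made. The scripts were tested on simulated data.

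Named genes were a fixed panel of signalling and myeloid genes; the 12 largest rises and 12 largest falls among called genes that had mean log2 CPM of 3 or more and no overlap between groups; up to 8 called and 4 uncalled members of each list; the 12 disagreeing genes and 12 others with the widest range over the flasks; and the 8 largest differences each way from the FGF2 flasks. The members, gene lists and panel were chosen with earlier results of these data known, so none of them is independent support.

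Alternatives were RLE and upper quartile scaling, no filter, DESeq2 1.42.0, limma-voom (limma 3.58.1), all 14 libraries in 1 fit, a replicate block, named identifiers only, a 1.5-fold threshold and leaving out each library. TMM over the compared libraries alone, and leaving out flasks 9 and 10 or flasks 11 and 12, were added after seeing the data. Promoter sequences are from RefSeq on GRCh38.p14, matched by gene symbol. The acute libraries of the series were not analysed here beyond scaling and the fit over 14 libraries.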

Additional observations from a re-analysis of the deposited data

Results flagged for a closer look

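Among 211 named genes checked in the 4 FL flasks, 29 had a flask that stood apart from the other 3 by Dixon's gap test at the 95% level. For normally distributed values chance alone puts about 1 in 20 groups past this value. The test was run on CPM, not on log2 CPM, and CPM widen gaps on the high side. CCR6 and HLA-DPB1 were under 1 CPM in every flask, so their flags rest on few counts. Flask 9 was the flask apart for 16 genes on the high side and 3 on the low side. The named genes include ones picked for a wide range over the flasks, so the count describes this choice of genes too.

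Flask 9 was the highest and apart for the following genes. ATF4, the stress-response transcription factor, was at 535 CPM there against 511 to 514 in the other flasks and 582 to 592 in the parental libraries. CADM1, an adhesion molecule, was at 25.5 CPM there against 1.32 to 5.45 in the other flasks and 35.1 to 40.2 in the parental libraries. CCR6, a chemokine receptor, was at 0.171 CPM there against 0.0315 to 0.0372 in the other flasks and 0.611 to 0.849 in the parental libraries. FLT3LG, which encodes FLT3 ligand, was at 7.29 CPM there against 3.59 to 3.83 in the other flasks and 3.60 to 3.995 in the parental libraries. HERC5, an ISG15 ligase, was at 21.0 CPM there against 18.7 to 19.1 in the other flasks and 9.90 to 11.3 in the parental libraries. HLA-DPB1, an MHC class II chain, was at 0.0342 CPM there against 0 in the other flasks and 1.25 to 1.51 in the parental libraries. HRC, a calcium-binding protein, was at 7.12 CPM there against 0.0998 to 0.967 in the other flasks and 2.56 to 2.81 in the parental libraries. MEIS1, the HOXA cofactor, was at 47.5 CPM there against 35.0 to 36.7 in the other flasks and 42.2 to 43.3 in the parental libraries. MEST was at 4.07 CPM there against 0 to 0.595 in the other flasks and 0.225 to 0.702 in the parental libraries. NOP58, a small nucleolar ribonucleoprotein, was at 181 CPM there against 171 to 172 in the other flasks and 219 to 231 in the parental libraries. NPY, neuropeptide Y, was at 5.44 CPM there against 0 to 0.0315 in the other flasks and 1.83 to 2.51 in the parental libraries. PLEKHA5 was at 15.2 CPM there against 3.86 to 5.49 in the other flasks and 13.1 to 15.6 in the parental libraries. PLXNC1, a semaphorin receptor, was at 114 CPM there against 13.1 to 25.8 in the other flasks and 18.2 to 19.0 in the parental libraries. SLC22A23, a transporter of the organic ion family, was at 70.4 CPM there against 4.70 to 6.39 in the other flasks and 14.3 to 16.9 in the parental libraries. SLC3A2, a heavy chain of amino acid transporters, was at 194 CPM there against 173 to 175 in the other flasks and 230.1 to 244 in the parental libraries. TCEA3, a transcription elongation factor, was at 7.08 CPM there against 0.0665 to 0.595 in the other flasks and 0.886 to 1.15 in the parental libraries.

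Flask 9 was the lowest and apart for the following genes. ANKRD52 was at 25.1 CPM there against 82.4 to 92.0 in the other flasks and 81.4 to 86.5 in the parental libraries. CA2, carbonic anhydrase 2, was at 36.0 CPM there against 105 to 118 in the other flasks and 2.88 to 4.18 in the parental libraries. HOXA7 was at 3.59 CPM there against 12.01 to 13.0 in the other flasks and 14.6 to 19.6 in the parental libraries.

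Flask 10 was the highest and apart for the following genes. GAS6, the ligand of AXL, was at 159 CPM there against 59.8 to 69.4 in the other flasks and 158 to 209.7 in the parental libraries. TBX18, a T-box factor, was at 3.61 CPM there against 0 in the other flasks and 0.708 to 1.40 in the parental libraries. UNCX, a homeobox factor, was at 31.5 CPM there against 0.274 to 0.665 in the other flasks and 3.73 to 5.25 in the parental libraries.

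Flask 10 was the lowest and apart for the following genes. CDKN1A, the CDK inhibitor p21, was at 150.2 CPM there against 326 to 361 in the other flasks and 199 to 223 in the parental libraries. MTHFD2, a mitochondrial folate enzyme, was at 157 CPM there against 186 to 191 in the other flasks and 251 to 265 in the parental libraries.

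Flask 11 was the highest and apart for the following genes. PRG3, an eosinophil granule protein, was at 20.3 CPM there against 0.0372 to 3.49 in the other flasks and 0 in the parental libraries. TPSB2, a mast cell tryptase, was at 5.77 CPM there against 2.12 to 2.63 in the other flasks and 0.0369 to 0.0720 in the parental libraries.

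Flask 11 was the lowest and apart for the following genes. CD74, the MHC class II invariant chain, was at 109.7 CPM there against 125 to 126 in the other flasks and 233 to 265 in the parental libraries. PMAIP1, the BH3-only protein NOXA, was at 12.7 CPM there against 14.03 to 14.2 in the other flasks and 18.4 to 21.2 in the parental libraries.

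Flask 12 was the highest and apart for a single gene. PTBP1, a splicing regulator, was at 838 CPM there against 722 to 739 in the other flasks and 649.8 to 728 in the parental libraries.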

How the results depend on the processing

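Of the 136 named genes called between FL and parental libraries, 64 kept the call whichever library was left out and 49 under every setting tried. RLE and upper quartile scaling lost 1 and 0 of the calls, limma-voom 17, no filter 17 and the 1.5-fold threshold 81, and DESeq2 lost 0 and added 8. Leaving out a parental library lost 41 to 72 of them and leaving out a flask 8 to 22. Genes higher and lower than parental numbered 1151 and 1280; they were 1754 and 1831 with DESeq2, 104 and 121 with the 1.5-fold threshold, 1895 and 1989 without flasks 9 and 10 (chosen after seeing the data), and 186 to 1326 and 196 to 1471 with 1 library left out. Against the FGF2 flasks, 1003 higher and 452 lower genes became 1581 and 969 with DESeq2, 1507 and 630 with all 14 libraries, 188 and 9 with the 1.5-fold threshold, and 369 to 1787 and 95 to 1227 with 1 library left out, the highest of these without flask 9. The 58 genes that disagreed between flasks became 299 and 6 with margins of 0.5 and 2, and 25 to 87 with 1 library left out. The causes were not tested.

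Replicate numbers did not pair the libraries. Same-numbered FL and parental libraries correlated at −0.0896, 0.0503 and 0.00141, and FL and FGF2 libraries at −0.0328 to 0.0727; not every library correlated best with its own number. With the replicate block, 934 genes were higher and 905 lower than parental, and 558 and 177 against FGF2, and flask 9, with no parental library of its number, then adds nothing to the difference. SLC22A23 went to −1.53 under the block.

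Differences that changed sign followed the flasks left out. Without flasks 9 and 10 the log2 fold changes were CD93 0.38, FADS2 0.66, IGSF10 −2.47, ILDR2 −2.42, SLC22A23 −1.64 and UNCX −2.79, and without flasks 11 and 12 CD209 was at −1.95. With 1 library left out, SLC22A23 ranged from −1.52 (without flask 9) to 0.79, UNCX from −3.08 (without flask 10) to 1.34, and the chemokine receptor median from −0.158 (without flask 11) to 0.186. The cytokine receptor median was −0.052 without flasks 11 and 12, and the axon guidance median −0.035 under the block.

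Estimated counts do not show how reads of near-identical genes, such as tryptases and HLA genes, were divided between the copies. Genes under 1 CPM rest on few counts, so their differences between flasks are imprecise at this depth. The labels tie ligand, inhibitor and outgrowth to the flasks together, and the spread on the control side comes from 3 parental libraries.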
